A study of Homo sapiens with 6 samples.

Results

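The genes described here are the TRIM ubiquitin ligases and the ubiquitin-specific (USP) and ovarian-tumour-domain (OTU) deubiquitinases, taken as every gene named on the array whose symbol begins with TRIM and a digit, USP and a digit, OTUB or OTUD. The rule read symbols and no comparison between the groups, and it gave 123 of the 14884 genes named here. Of these, 61 were protein-coding TRIM genes, 56 were protein-coding USP or OTU genes, and 6 were antisense or divergent transcripts or pseudogenes that share the symbols. RefSeq lists 164 protein-coding genes with such symbols, and 117 of them were measured.

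The cells were HK2, an established cell line derived from human kidney proximal tubule epithelium. One group carried a lentiviral pLKO.1 vector with a short hairpin RNA (shRNA) against PGC-1alpha, a transcriptional coactivator known for mitochondrial biogenesis, and the control group carried the same vector with an shRNA whose target, GFP, is absent from human cells. After puromycin selection of both groups, RNA was harvested on day 5 from transduction, with 24 hours elapsed since the drug was withdrawn. Each group held 3 arrays labelled as biological replicates, 1 hairpin is named for each target, and separate transductions are not stated, so p-values here reflect only the spread among these arrays, which may be technical.

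Ubiquitin is a small protein that is attached to other proteins by a cascade of activating (E1), conjugating (E2) and ligating (E3) enzymes. The chains mark proteins for the proteasome or build signalling platforms, depending on how they are linked. Most TRIM proteins carry a RING finger, B-boxes and a coiled coil, act as E3 ligases, and are best known for antiviral sensing and NF-kB signalling. Deubiquitinases cut ubiquitin off again. USP enzymes are cysteine proteases that act on many substrates, among them histones, p53 and its ligase MDM2, and proteins on damaged mitochondria. OTU enzymes often prefer particular chain linkages.

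The values were log2 RMA values, so a difference of 1 is a 2-fold change, and differences are shPGC-1alpha minus shGFP. Array medians lay between 5.00 and 5.04, and the first principal component, with 40.3% of the variance, separated the groups. The second, with 19.6%, set shGFP replicate 1 apart, at 42.6 against -19.7 and -26.9 for the other shGFP arrays. PPARGC1A, which encodes PGC-1alpha, had 0 named probe sets, so the knockdown itself was not analysed here. Among the defining markers of the labelled cell type, 13 of 20 kidney and epithelial genes were measured, and their mean level per array was 6.87 to 6.98 with shPGC-1alpha and 7.12 to 7.24 with shGFP. PAX8 was higher with shPGC-1alpha, EPCAM, KRT18, KRT19 and MME were lower, and the proximal tubule receptors CUBN and LRP2 lay below 4.43, the 20th percentile of named genes. The 3 measured of 8 fibroblast markers averaged 6.57 to 6.63 with shPGC-1alpha and 6.01 to 6.17 with shGFP, with LUM and DCN higher and DCN itself below 4.43. The 4 measured of 10 leukocyte markers averaged 4.97 to 5.04 with shPGC-1alpha and 5.07 to 5.25 with shGFP, with CSF1R and TYROBP lower and LYZ below 4.43. The 5 measured of 7 endothelial markers averaged 4.86 to 5.00 with shPGC-1alpha and 4.90 to 5.09 with shGFP, with 0 called and KDR and PECAM1 below 4.43. The part of these markers in the results below was not tested.

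Promoter sequences are shown because many TRIM genes are known interferon targets. They come from RefSeq (build GRCh38.p14) and run from 250 bases before to 50 bases after each gene's start, and 46 of the 61 TRIM genes and 41 of the 56 deubiquitinases matched the table. The interferon-stimulated response element was searched as a GAAA repeat, any 2 bases and a further GAAA on both strands, and matches may overlap each other. It was present in 9 of 46 TRIM promoters (19.6%) and in 1 of 41 deubiquitinase promoters (2.44%), beside 3.58% of all 34961 promoters in the table. The members entered with 1 promoter per protein-coding gene. The share over all promoters was not limited in these ways, so the sets are not alike. TRIM21, an intracellular antibody receptor, holds a pair of overlapping matches in its first transcribed bases, and TRIM2 is the matching gene that fell. TRIM25, among the TRIM genes that rose most, has no match in this window. Capitals mark the matched letters in the windows chr4:153151913-153152212 (TRIM2, plus strand), chr11:4393653-4393952 (TRIM21, minus strand) and chr17:56914000-56914299 (TRIM25, minus strand).
TRIM2: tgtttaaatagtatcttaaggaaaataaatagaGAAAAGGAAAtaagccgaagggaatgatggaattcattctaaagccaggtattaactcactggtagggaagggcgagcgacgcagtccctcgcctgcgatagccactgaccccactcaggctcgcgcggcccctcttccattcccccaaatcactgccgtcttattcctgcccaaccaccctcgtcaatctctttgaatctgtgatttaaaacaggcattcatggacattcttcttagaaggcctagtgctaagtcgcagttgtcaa
TRIM21: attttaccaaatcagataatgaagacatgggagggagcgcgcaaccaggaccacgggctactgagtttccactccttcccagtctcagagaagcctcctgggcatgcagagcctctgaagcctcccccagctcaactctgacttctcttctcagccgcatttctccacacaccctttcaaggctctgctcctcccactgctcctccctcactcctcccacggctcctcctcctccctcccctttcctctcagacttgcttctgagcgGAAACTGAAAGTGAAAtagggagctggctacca
TRIM25: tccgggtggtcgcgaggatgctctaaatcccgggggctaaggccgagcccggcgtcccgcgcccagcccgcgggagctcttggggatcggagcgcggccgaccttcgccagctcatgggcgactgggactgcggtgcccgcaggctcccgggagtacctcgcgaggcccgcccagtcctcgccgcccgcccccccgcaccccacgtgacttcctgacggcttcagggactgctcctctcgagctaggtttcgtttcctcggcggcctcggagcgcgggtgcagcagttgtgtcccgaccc

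The question was whether ligases and deubiquitinases differed in cells with the shRNA against PGC-1alpha. Members of both families moved in both directions. TRIM8, TRIM25 and TRIM36 rose most among the ligases and TRIM47, TRIM2 and TRIM38 fell most. USP53 rose most among the deubiquitinases and USP39, USP25 and USP22 fell most. The largest difference was that of TRIM8, 1.75-fold higher, and 0 coding members differed by a log2 value of 1 or more.

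Past a limma adjusted p of 0.05 over all 14884 genes, 26 of the 123 members were called, or 21.1%, where 21.8% of all genes and 24.6% of all protein-coding genes were called. The ligases had 5 genes higher and 7 lower of 61, and the deubiquitinases 6 higher and 7 lower of 56. Over all genes 9.58% were higher and 12.2% lower, so both families were called about as often as genes in general. The median log2 difference was 0.02 over the ligases and -0.06 over the deubiquitinases, beside -0.02 over all genes. Groups did not overlap for 23 ligases and 29 deubiquitinases, 37.7% and 51.8% of each family, beside 38.7% of all genes and 43.1% of protein-coding genes. The difference between the families was not tested. Every called gene, among the members and over all genes, had groups that did not overlap. For the called members below, such separation comes with the call and is no further support for it. Counts in the lists below stand beside the same 9.58% higher and 12.2% lower of all genes, and no list was tested. Log2 differences of at least 0.5 in size were found for 8 of 117 coding members, and for 9.12% of all genes.

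The count of higher deubiquitinases depended on single arrays. It was 2 without shPGC-1alpha replicate 1, 1 without shPGC-1alpha replicate 2, 3 without shGFP replicate 1, 2 without shGFP replicate 2 and 2 without shGFP replicate 3. The count of lower deubiquitinases was 4 without shPGC-1alpha replicate 3, shGFP replicate 1 or shGFP replicate 3, and that of lower ligases was 4 without shPGC-1alpha replicate 2 or shGFP replicate 2. With each array left out in turn, 8 of the 12 called ligases and 5 of the 13 called deubiquitinases kept their call every time.

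**Figure D1:**
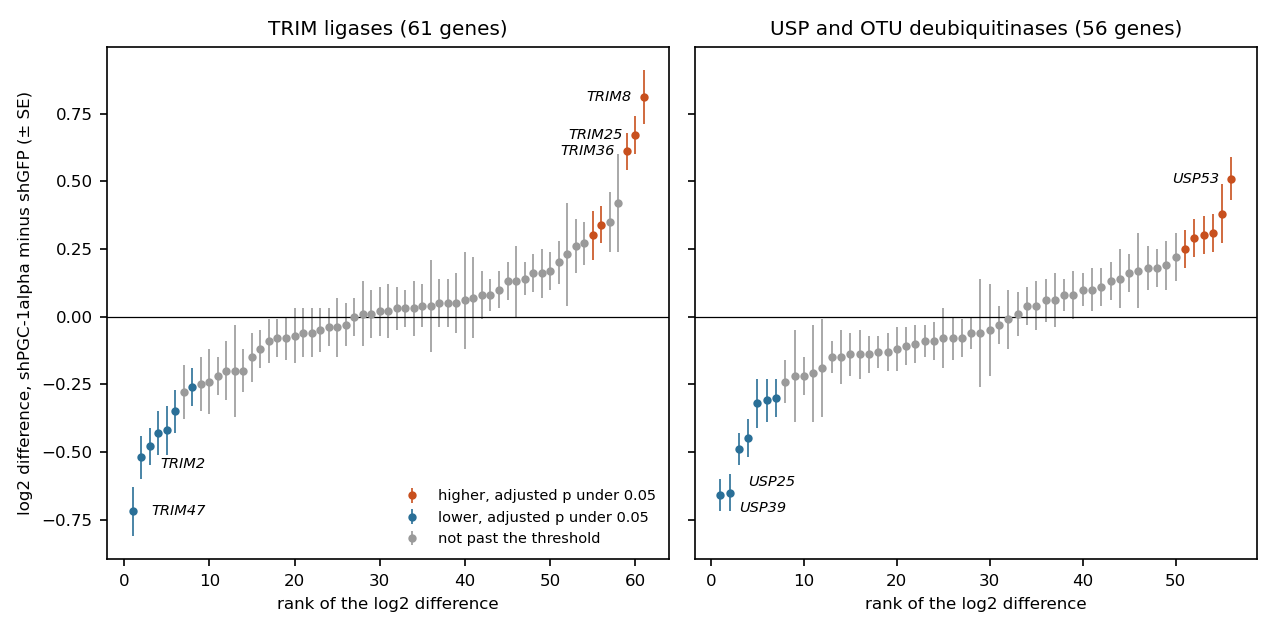
Log2 differences, shPGC-1alpha minus shGFP, with their standard errors for the 61 TRIM genes (left) and the 56 USP and OTU genes (right), in rank order on the horizontal axis and coloured by limma adjusted p. Called genes lie at both ends of each family, from -0.72 for TRIM47 to 0.81 for TRIM8, and most genes lie near 0.

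**Figure D2:**
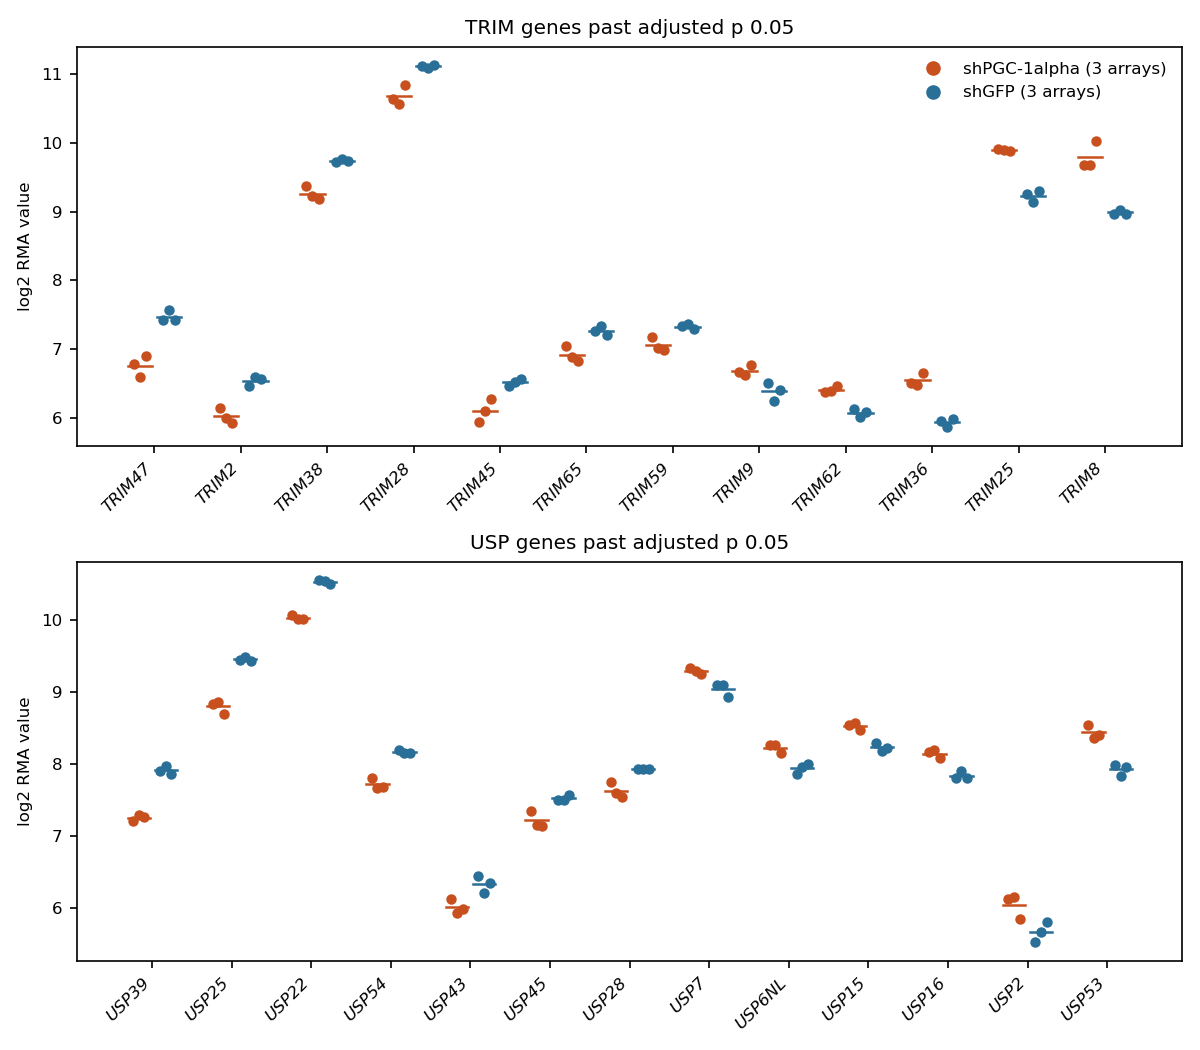
Log2 RMA values of the 25 called coding members on every array (vertical axis), with shPGC-1alpha left of shGFP, 3 arrays each, and a line at each mean. The groups do not overlap for any of these genes, which held for every called gene of the series and adds no support to a call. TRIM8 shows the largest SD among its shPGC-1alpha arrays, at 0.19.

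Ligases that act in NF-kB and RNA-sensing signalling were called in both directions. TRIM8, which promotes ubiquitination of the kinase TAK1 downstream of TNF and interleukin-1, measured 9.68, 9.68 and 10.02 with shPGC-1alpha, against 8.97, 9.03 and 8.96 with shGFP. All 3 shPGC-1alpha arrays were above all shGFP arrays, and replicate 3 was the highest. The difference was 0.81 (SE 0.10, limma adjusted p = 0.0017). TRIM25, the ligase that ubiquitinates the viral RNA sensor RIG-I, measured 9.91, 9.90 and 9.88 with shPGC-1alpha, against 9.25, 9.14 and 9.30 with shGFP. Its shPGC-1alpha arrays lay close together and well above every shGFP array. The difference was 0.67 (SE 0.07, limma adjusted p = 0.000678), or 1.59-fold. TRIM38, which restrains TNF and interleukin-1 signalling through the TAK1 adaptors TAB2 and TAB3, measured 9.37, 9.22 and 9.18 with shPGC-1alpha, against 9.72, 9.77 and 9.73 with shGFP. It was lower on every shPGC-1alpha array, by -0.48 (SE 0.07, limma adjusted p = 0.00335). TRIM65, which ubiquitinates the RNA sensor MDA5, measured 7.04, 6.89 and 6.83 with shPGC-1alpha, against 7.27, 7.34 and 7.20 with shGFP. The groups did not overlap, and the difference was -0.35 (SE 0.08, limma adjusted p = 0.018). That call was lost without shPGC-1alpha replicate 2 or 3 or shGFP replicate 1 or 2, with adjusted p up to 0.0678.

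In the list of antiviral and innate-sensing TRIM genes, 1 of 11 measured was higher (TRIM25) and 2 were lower (TRIM38 and TRIM65), with a median of -0.06. The others were not called. TRIM21 differed by 0.08, TRIM26 by -0.15 and TRIM56, which acts in sensing of cytosolic nucleic acid, by -0.09. TRIM5, known for restricting retroviral capsids, differed by -0.08 and TRIM22 by -0.06, the last of these below the 20th percentile level. The 8 promoters with the interferon element other than that of TRIM2 belonged to TRIM5, TRIM14, TRIM16, TRIM21, TRIM26, TRIM44, TRIM64C and TRIM69, with differences from -0.15 for TRIM26 to 0.23 for TRIM64C and 0 calls among them. The element was in 0 of 10 promoters of higher members and 1 of 11 of lower members that matched the table.

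Among TRIM proteins with a COS box, a motif that binds microtubules, 2 of 7 measured were higher and 0 lower, with a median of 0.13. Over all genes 9.58% were higher and 12.2% lower. TRIM36 measured 6.50, 6.48 and 6.65 with shPGC-1alpha, against 5.95, 5.86 and 5.99 with shGFP. The groups were far apart relative to their spread, and the difference was 0.61 (SE 0.07, limma adjusted p = 0.00148). TRIM9, a neuronal ligase that binds the netrin receptor in axon guidance, measured 6.66, 6.63 and 6.77 with shPGC-1alpha, against 6.51, 6.25 and 6.41 with shGFP. Its difference of 0.30 (SE 0.09) had a limma adjusted p of 0.0483 that was kept without shGFP replicate 1 and lost without any other single array, at up to 0.14. TRIM42 differed by 0.35 (limma adjusted p = 0.0539) and TRIM55, a muscle sarcomere protein, by -0.28 (limma adjusted p = 0.103), neither called.

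Ligases with NHL repeats or a filamin domain gave 0 higher and 2 lower of 4, beside 9.58% and 12.2% of all genes. TRIM2, a neuronal ligase of neurofilament light chain, measured 6.14, 6.0 and 5.93 with shPGC-1alpha, against 6.46, 6.59 and 6.57 with shGFP. It was lower on every shPGC-1alpha array, by -0.52 (SE 0.08, limma adjusted p = 0.00358). TRIM45, which represses transcription driven by MAP kinases, measured 5.94, 6.10 and 6.27 with shPGC-1alpha, against 6.46, 6.52 and 6.57 with shGFP. The shPGC-1alpha arrays were spread but stayed below all shGFP arrays, and the difference was -0.42 (SE 0.09, limma adjusted p = 0.0189). It was not called without shPGC-1alpha replicate 2, shGFP replicate 2 or shGFP replicate 3, with adjusted p up to 0.0658. TRIM32, which binds actin and is known from muscle disease, differed by 0.27 (limma adjusted p = 0.0544), and TRIM3 by 0.07 (limma adjusted p = 0.799).

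TRIM28, also called KAP1, is the corepressor that KRAB zinc-finger proteins bring to chromatin. It measured 10.63, 10.57 and 10.84 with shPGC-1alpha, against 11.12, 11.09 and 11.13 with shGFP. All shPGC-1alpha arrays lay below the shGFP arrays, which were nearly equal, and the difference was -0.43 (SE 0.08, limma adjusted p = 0.0103). The other PHD-bromodomain members were not called. TRIM24, a nuclear receptor cofactor, differed by 0.26 (limma adjusted p = 0.103), TRIM33, known for limiting SMAD4, by 0.03 (limma adjusted p = 0.814), and TRIM66 by -0.20 (limma adjusted p = 0.145).

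TRIM47, first described from its overexpression in astrocytoma, fell most of all members. It measured 6.78, 6.59 and 6.90 with shPGC-1alpha, against 7.43, 7.57 and 7.42 with shGFP. The groups were more than 0.5 apart at their nearest arrays, and the difference was -0.72 (SE 0.09, limma adjusted p = 0.00198), or 1.64-fold lower. TRIM47 (GRCh38.p14, chr17:75874164-75878581) and TRIM65 (chr17:75879537-75896951) are neighbours, with 956 bases between them, and both fell. No other pair of members this close or overlapping had both genes called. USP2 and USP2-AS1, 88 bases apart, differed by 0.38 and -0.14. A link between position and change was not tested. TRIM65 was not called without shPGC-1alpha replicate 2 or 3 or shGFP replicate 1 or 2, with adjusted p between 0.05 and 0.0678.

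TRIM62, a ligase with a part in epithelial polarity, measured 6.38, 6.39 and 6.46 with shPGC-1alpha, against 6.13, 6.01 and 6.08 with shGFP. It was higher on all 3 shPGC-1alpha arrays, by 0.34 (SE 0.07, limma adjusted p = 0.01), a call lost when p was adjusted over all probe sets (adjusted p = 0.0525). TRIM59, anchored in the endoplasmic reticulum membrane, measured 7.17, 7.02 and 6.99 with shPGC-1alpha, against 7.33, 7.36 and 7.29 with shGFP. Its difference of -0.26 (SE 0.07, limma adjusted p = 0.0379) was called without shPGC-1alpha replicate 1 and with all 6 arrays, and not without any other single array, where adjusted p reached 0.118. TRIM13, the other membrane-anchored member, differed by -0.25 (limma adjusted p = 0.143). The 5 TRIM proteins without a RING finger had 0 calls, with TRIM44 at 0.14 and TRIM14 at a difference that rounds to 0. The 10 TRIM genes with near-identical copies also had 0 calls, and their probes may not tell the copies apart. Among those, TRIM74 differed by -0.24, TRIM64B by 0.20 and TRIM43B by 0.42 (SE 0.18, limma adjusted p = 0.156), and its groups overlapped. TRIM10, TRIM15, TRIM27 and TRIM40 have 8 probe sets each and TRIM31 has 5, all in or near the major histocompatibility complex, and their differences ranged from -0.12 to 0.17 with 0 calls.

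Among deubiquitinases of NF-kB and innate signalling, 2 of 14 measured were higher and 1 lower, with a median of -0.05. USP25, which removes ubiquitin from TRAF proteins in interleukin-17 signalling, measured 8.84, 8.87 and 8.70 with shPGC-1alpha, against 9.45, 9.49 and 9.43 with shGFP. Every shPGC-1alpha array was lower, by -0.65 on average (SE 0.07, limma adjusted p = 0.000889), or 1.57-fold. USP15, which deubiquitinates TRIM25 and SMAD proteins, measured 8.55, 8.57 and 8.48 with shPGC-1alpha, against 8.30, 8.18 and 8.23 with shGFP. The groups did not overlap, and the difference was 0.30 (SE 0.07, limma adjusted p = 0.0177). That call was lost without shPGC-1alpha replicate 1 or 2 or shGFP replicate 2 or 3, with adjusted p up to 0.0696. USP2, known for deubiquitinating cyclin D1 and for its circadian expression, measured 6.13, 6.15 and 5.84 with shPGC-1alpha, against 5.52, 5.66 and 5.80 with shGFP. Its difference of 0.38 (SE 0.11, limma adjusted p = 0.0499) stayed past the threshold without shPGC-1alpha replicate 3 and was lost without any other single array, at up to 0.139. A second USP2 probe set went the other way, at -0.18, so the direction of USP2 depends on the probe set. USP18, which removes the ubiquitin-like protein ISG15, differed by 0.08 (limma adjusted p = 0.583).

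The 8 OTU genes among the members all had OTUD symbols, since no OTUB gene had a named probe set. YOD1, an OTU enzyme with another symbol, was higher and is described with the other deubiquitinases below. The 8 OTUD members had 0 calls at a limma adjusted p of 0.05. Their differences ran from -0.12 for OTUD6B to 0.17 for OTUD7A. OTUD7B, which restrains non-canonical NF-kB signalling through TRAF3, differed by -0.09 (limma adjusted p = 0.353), OTUD5 by -0.09 and OTUD4 by 0.11. OTUD3 differed by 0.16 (limma adjusted p = 0.148), and its groups did not overlap.

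In the list of deubiquitinases that act on histones H2A and H2B, 1 of 8 measured was higher and 1 lower. USP43, reported to act on histone H2B and lower as described below, is not in this list. USP22, the catalytic subunit of the SAGA coactivator's deubiquitinase module, measured 10.07, 10.02 and 10.02 with shPGC-1alpha, against 10.56, 10.54 and 10.50 with shGFP. The replicates of each group lay within 0.1 of each other, and the difference was -0.49 (SE 0.06, limma adjusted p = 0.00139). ENY2, a small subunit of the same module, measured 5.27, 5.21 and 5.32 with shPGC-1alpha, against 6.25, 6.34 and 6.34 with shGFP. It was lower on every shPGC-1alpha array, by -1.05 (SE 0.07, limma adjusted p = 0.000112), or 2.07-fold lower. The module's anchor ATXN7 differed by -0.10 (limma adjusted p = 0.41). USP16, a histone H2A deubiquitinase, measured 8.17, 8.19 and 8.08 with shPGC-1alpha, against 7.81, 7.90 and 7.81 with shGFP. It was higher on all 3 arrays, by 0.31 (SE 0.07, limma adjusted p = 0.0148), and was not called without shPGC-1alpha replicate 2 (adjusted p = 0.0519) or shGFP replicate 3 (adjusted p = 0.0561).

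In splicing, USP39, a tri-snRNP component that carries an inactive protease domain, measured 7.21, 7.29 and 7.27 with shPGC-1alpha, against 7.91, 7.98 and 7.86 with shGFP. The replicate ranges were narrow and far apart. The difference was -0.66 (SE 0.06, limma adjusted p = 0.000583), the smallest p of any member, or 1.58-fold lower. USP4, which acts with SART3 on the spliceosome, differed by -0.03 (limma adjusted p = 0.786), and SART3 by -0.13 (limma adjusted p = 0.206).

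USP53 and USP54 were long annotated as inactive members of the family and have more recently been reported to cut lysine-63 chains. USP53, which is found at tight junctions, measured 8.55, 8.37 and 8.40 with shPGC-1alpha, against 7.99, 7.83 and 7.96 with shGFP. Every shPGC-1alpha array was higher, by 0.51 on average (SE 0.08, limma adjusted p = 0.00388). USP54 measured 7.80, 7.67 and 7.68 with shPGC-1alpha, against 8.20, 8.15 and 8.16 with shGFP. It was lower on every array, by -0.45 (SE 0.07, limma adjusted p = 0.00325), so these relatives moved in opposite directions.

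Of the 9 deubiquitinases of DNA damage and p53, 1 was higher and 2 lower. USP7, which deubiquitinates MDM2 and p53, measured 9.33, 9.29 and 9.25 with shPGC-1alpha, against 9.10, 9.10 and 8.93 with shGFP. The groups did not overlap, but the difference of 0.25 (SE 0.07, limma adjusted p = 0.0493) was not called without any 1 of the 6 arrays, with adjusted p from 0.0688 to 0.145. GMPS, which binds USP7, was lower by -0.37 (SE 0.08, limma adjusted p = 0.0125), a call lost when p was adjusted over all probe sets (adjusted p = 0.0582). USP28, known for stabilising MYC, measured 7.75, 7.60 and 7.54 with shPGC-1alpha, against 7.93 on each of the 3 shGFP arrays. Its difference was -0.30 (SE 0.07, limma adjusted p = 0.0247). USP45, which acts on the repair nuclease subunit ERCC1, measured 7.35, 7.16 and 7.14 with shPGC-1alpha, against 7.50, 7.50 and 7.57 with shGFP. In both genes shPGC-1alpha replicate 1 lay nearest the shGFP arrays. The USP45 difference was -0.31 (SE 0.08, limma adjusted p = 0.0272). Both calls were kept without shPGC-1alpha replicate 1 and lost without any other single array, with adjusted p up to 0.0753 for USP28 and 0.0905 for USP45. USP1, which acts on PCNA and FANCD2 with WDR48, differed by -0.14 (limma adjusted p = 0.241), and WDR48 by 0.13 (limma adjusted p = 0.31). PCNA was lower by -0.33 with all 6 arrays (SE 0.07, limma adjusted p = 0.0188), and how its call depends on single arrays is not given here.

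USP43, a deubiquitinase reported to act on histone H2B, measured 6.13, 5.93 and 5.99 with shPGC-1alpha, against 6.45, 6.21 and 6.34 with shGFP. It was lower by -0.32 (SE 0.09, limma adjusted p = 0.0387), a call lost without shPGC-1alpha replicate 2 or 3 or shGFP replicate 1 or 3, with adjusted p up to 0.113. USP6NL shares the symbol's beginning but encodes a GTPase-activating protein of RAB proteins and no protease. It measured 8.26, 8.26 and 8.16 with shPGC-1alpha, against 7.86, 7.96 and 8.0 with shGFP. Its difference was 0.29 (SE 0.07, limma adjusted p = 0.0242), not called without shPGC-1alpha replicate 1 or 2 or shGFP replicate 1 or 2, with adjusted p up to 0.0754. Without USP6NL the deubiquitinases had 5 higher and 7 lower of 55. The lower genes still include USP39, described above with an inactive protease domain. The 6 noncoding members were USP2-AS1, USP3-AS1, USP30-AS1, USP27X-DT and the pseudogenes USP17L9P and USP32P1, with 1 call. USP17L9P held the same values on every array as USP17L12, which is counted among the deubiquitinases, so these 2 members are 1 measurement. Neither was called. USP27X-DT measured 4.13, 3.92 and 3.95 with shPGC-1alpha, against 4.31, 4.56 and 4.35 with shGFP. Its group means lie below the 20th percentile level, and the difference was -0.41 (SE 0.09, limma adjusted p = 0.0204), not called without shPGC-1alpha replicate 2 or 3 or shGFP replicate 2, with adjusted p up to 0.0691.

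PGC-1alpha is known for mitochondria, and deubiquitinases of mitochondria and mitophagy were 4 of those measured, with 1 higher (USP15, described above with the arrays its call depends on) and 0 lower. USP30, which opposes parkin on the outer mitochondrial membrane, measured 6.60, 6.36 and 6.59 with shPGC-1alpha, against 6.65, 6.71 and 6.63 with shGFP. The difference was -0.14 (SE 0.08, limma adjusted p = 0.285). USP8, an endosomal enzyme that also acts on parkin, differed by 0.01 (limma adjusted p = 0.951). Enzymes of the proteasome and free chains had 0 calls, with USP14, which trims chains at the proteasome, at 0.18 (limma adjusted p = 0.0917) and USP5, which takes free chains apart, at 0.06 (limma adjusted p = 0.675). USP1, USP12 and USP46, which are activated by WDR48, were not called either, with USP12 at 0.19 (limma adjusted p = 0.179) and USP46 at -0.13 (limma adjusted p = 0.237).

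**Figure D3:**
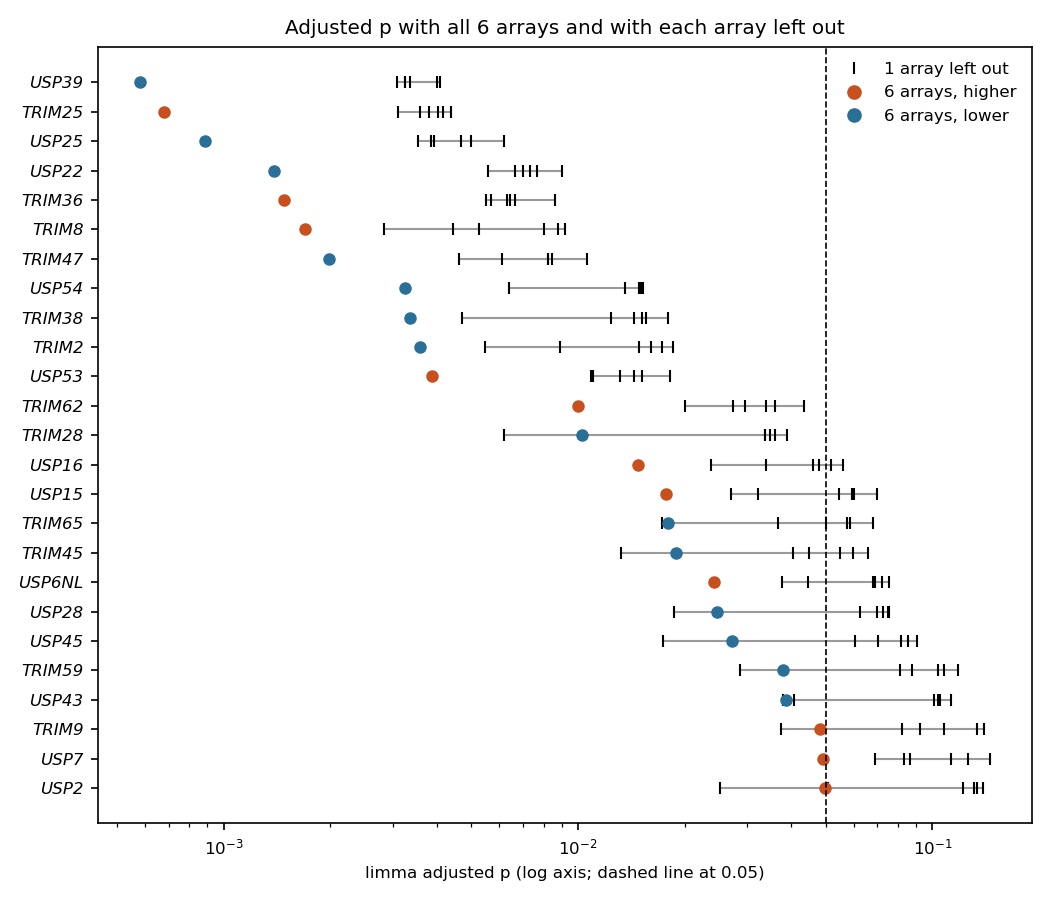
Limma adjusted p on a log axis for the 25 called coding members, with all 6 arrays (circles) and with each array left out in turn (ticks), and a dashed line at 0.05. The 13 genes from USP39 to TRIM28 keep every tick left of the line, and USP7 keeps none.

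Related members were also set against each other within each array, as the log2 gap between the pair. The 11 pairs were chosen with the values known, so no test is given. The gap of USP53 over USP54 was 0.96 larger with shPGC-1alpha (SE 0.04), and that of TRIM36 over TRIM46, another COS-box protein, was 0.65 larger (SE 0.05). TRIM24 and TRIM33 gained on TRIM28 by 0.69 (SE 0.18) and 0.46 (SE 0.12), and TRIM2 lost to TRIM3 by -0.59 (SE 0.24). USP25 and its closest relative USP28 both fell, with USP28 not called without any array other than shPGC-1alpha replicate 1 (adjusted p up to 0.0753), and their gap changed by -0.35 (SE 0.05). The gap of USP15 over USP4 was 0.33 larger (SE 0.07) and that of USP12 over USP46 was 0.32 larger (SE 0.09). Groups overlapped in the gaps of USP33 over USP20, TRIM9 over TRIM67 and OTUD7B over OTUD7A.

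**Figure D4:**
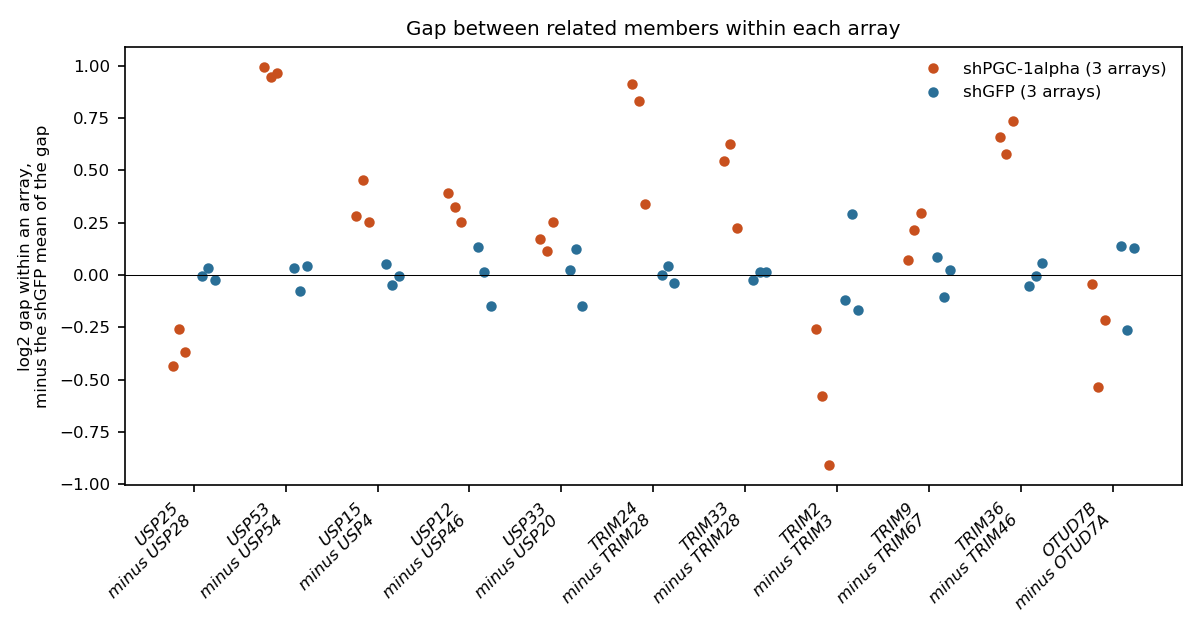
Log2 gap between related members within each array, minus the mean gap of the 3 shGFP arrays (vertical axis), with shPGC-1alpha left of shGFP. USP53 over USP54 and TRIM36 over TRIM46 show the groups far apart, and OTUD7B over OTUD7A shows them overlapping.

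Other genes of the ubiquitin system were counted from lists. Together they held 126 measured genes, of which 21 were higher and 21 lower, or 33.3% called. The share was 21.8% over all genes, 24.6% over protein-coding genes and 27.9% over protein-coding genes above the 20th percentile level. The difference from these shares was not tested. Among 10 TRIM-family genes with other symbols, 2 were higher and 1 lower. PML, also known as TRIM19, organises nuclear bodies and measured 8.89, 8.86 and 9.05 with shPGC-1alpha, against 7.48, 7.55 and 7.45 with shGFP. It was higher on every array, by 1.44 (SE 0.08, limma adjusted p = 5.92e-05), or 2.71-fold, more than any of the 61 TRIM genes. TRIML2 was higher by 0.50 (SE 0.10, limma adjusted p = 0.00941), and RNF207, known from the control of cardiac repolarisation, was lower by -0.55 (SE 0.07, limma adjusted p = 0.00161). Among 20 other deubiquitinases, 2 were higher and 5 lower. YOD1, an OTU enzyme of endoplasmic reticulum quality control, was higher by 0.81 (SE 0.07) and CYLD, which removes chains from NF-kB regulators, by 0.72 (SE 0.08), with limma adjusted p of 0.00029 and 0.000761. UCHL3 was lower by -0.74 (SE 0.09, limma adjusted p = 0.00153).

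Of 23 genes of the NF-kB ubiquitin machinery, 3 were higher and 4 lower. TNIP1, which binds ubiquitin chains and the deubiquitinase A20, measured 9.36, 9.26 and 9.44 with shPGC-1alpha, against 8.25, 8.13 and 8.25 with shGFP. It was 2.21-fold higher (log2 difference 1.14, SE 0.08, limma adjusted p = 0.00014). MAP3K7, which encodes TAK1, the substrate of TRIM8 named above, measured 8.96, 8.99 and 8.91 with shPGC-1alpha, against 9.70, 9.68 and 9.64 with shGFP. It was lower by -0.72 (SE 0.06, limma adjusted p = 0.000323), so TRIM8 and its substrate's transcript moved in opposite directions. RNF11, a partner of A20, was lower by -0.88 (SE 0.08, limma adjusted p = 0.000417). TAB2 and TAB3, through which TRIM38 acts, differed by 0.13 and 0.11, and TRAF3 by 0.21, with 0 of these called.

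Of 15 genes of the ISG15 system and the RIG-I pathway, 3 were higher and 3 lower. RIGI, which encodes the RIG-I sensor that TRIM25 acts on, measured 6.70, 6.63 and 6.62 with shPGC-1alpha, against 7.12, 7.23 and 7.34 with shGFP. It was lower on every array, by -0.58 (SE 0.08, limma adjusted p = 0.00193), where TRIM25 was higher by 0.67. HERC5, the ligase of ISG15, was lower by -0.44 (SE 0.07, limma adjusted p = 0.00477), and ISG15 itself differed by 0.05 (limma adjusted p = 0.734). IFIH1, which encodes the MDA5 sensor that TRIM65 acts on, measured 5.70, 5.59 and 5.58 with shPGC-1alpha, against 5.18, 5.37 and 5.39 with shGFP. It was higher by 0.31 (SE 0.08, limma adjusted p = 0.0327), a call lost without any 1 of the 6 arrays. TBK1, the kinase downstream of both sensors, was higher by 0.30 (SE 0.07, limma adjusted p = 0.028), a call kept without shPGC-1alpha replicate 3 and lost without any other single array.

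Of 25 E2 enzymes, 6 were higher (24.0%) and 1 lower (4.0%), beside 9.58% and 12.2% of all genes. Their median difference was 0.06. Some of these calls lay near the threshold, with limma adjusted p of 0.0331 for UBE2D4 and 0.0476 for UBE2L6, both higher. UBE2H, the lower gene, had a limma adjusted p of 0.0449. How these calls depend on single arrays is not given here. UBE2E3 was higher by 0.96 (SE 0.07, limma adjusted p = 0.000225), and UBE2S, which extends chains for the anaphase-promoting complex, by 0.50 (SE 0.07, limma adjusted p = 0.00198). UBE2V2, a catalytically inactive partner in lysine-63 chain synthesis, was higher by 0.36 (SE 0.07, limma adjusted p = 0.00933). Of 8 ubiquitin and E1 genes, 1 was higher and 1 lower. ATG7, the E1-like enzyme of autophagy, was higher by 0.42 (SE 0.08) and NAE1, a subunit of the NEDD8 E1, was lower by -0.37 (SE 0.07), with limma adjusted p of 0.00857 and 0.00842. Of 13 cullin scaffold genes, 2 were higher and 2 lower, with FBXO32, a muscle atrophy ligase subunit, at 0.76 (SE 0.07) CUL7 at -0.53 (SE 0.07) and CUL4B, a scaffold of DNA-damage ligases, at -0.46 (SE 0.07). Of 15 partners of deubiquitinases, ENY2 and GMPS among them, 3 were higher and 4 lower. STAM, an endosomal adaptor that binds USP8, was higher by 0.35 (SE 0.06, limma adjusted p = 0.00661). Of the proteasome subunits, 1 was measured, ADRM1, which was higher by 0.44 (SE 0.06, limma adjusted p = 0.00264).

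**Figure D5:**
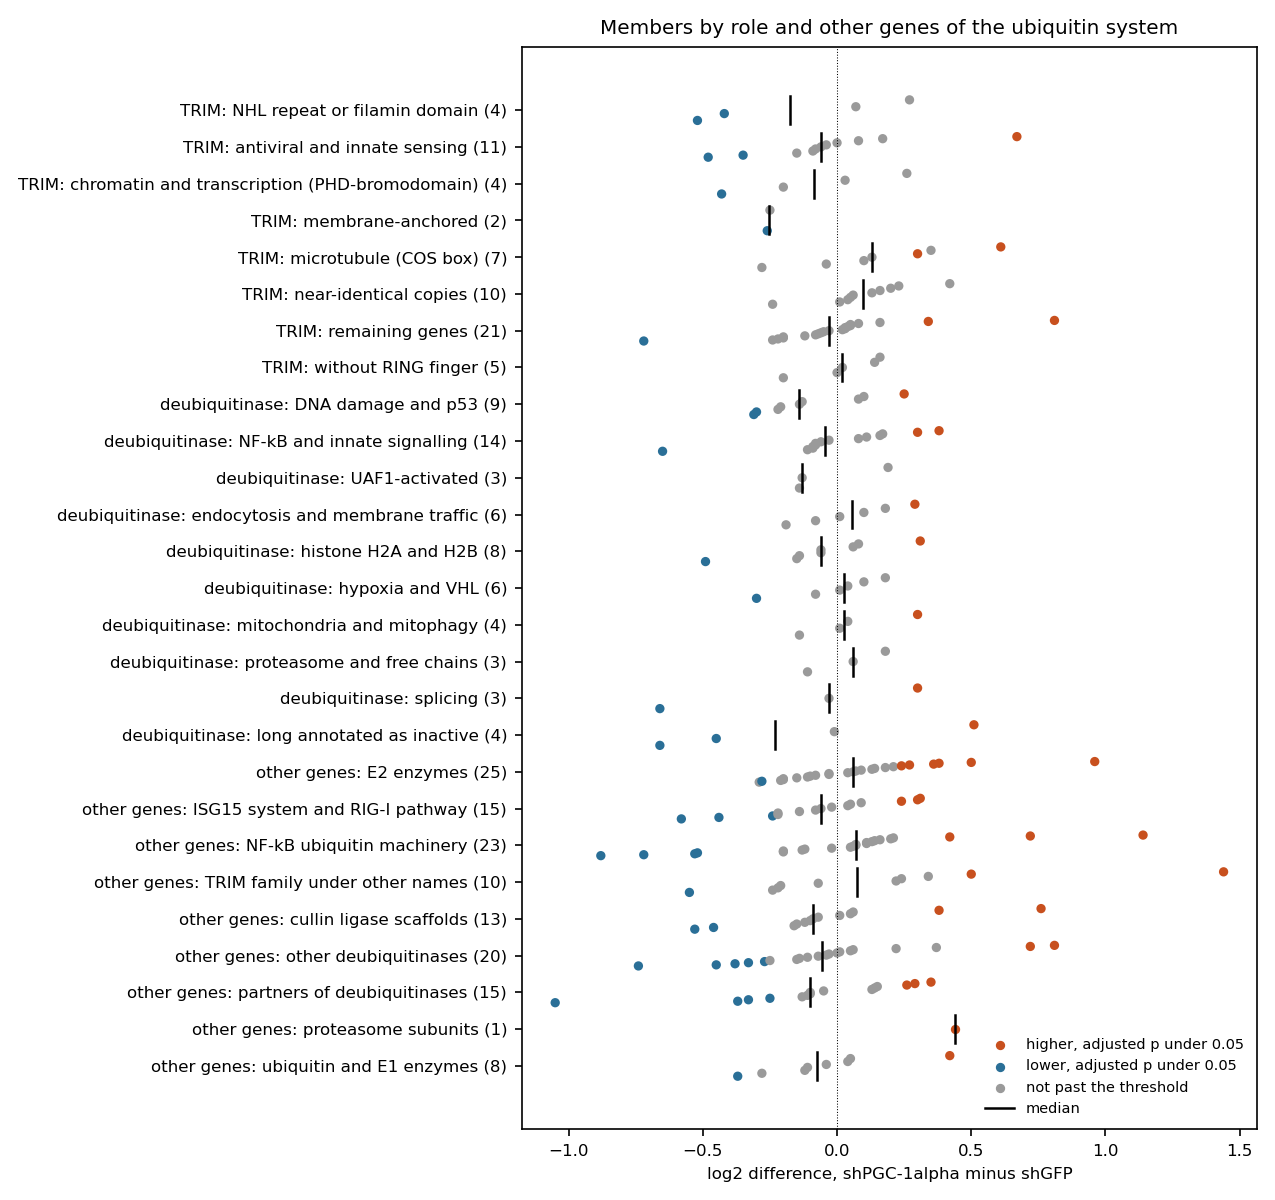
Log2 difference, shPGC-1alpha minus shGFP (horizontal axis), of each measured gene in the role lists of TRIM genes and deubiquitinases and in the lists of other ubiquitin-system genes, with the number measured in brackets, the median as a bar and colours by limma adjusted p. A gene may stand in several lists, most lists hold points on both sides of 0, and PML at 1.44 and ENY2 at -1.05 lie outside the range of the TRIM, USP and OTU genes.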

How the data were processed

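The authors deposited log2 expression values for 53617 probe sets on 6 arrays. The submitters' processing notes name RMA and Affymetrix Expression Console, without versions. The values, 0.66 to 13.78, were used as deposited; RMA equalises the arrays' distributions, so a shift of most transcripts in 1 direction would be reduced. RMA values carry no counts or detection calls, so they do not tell whether a dim gene is expressed. The number of arrays limits the precision.

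The platform's annotation named 1 gene for 16098 probe sets and none for 37519, which gave 14884 genes. The probe set with the highest mean stood for a gene with several, which applied to 7 members. Groups came from the sample titles. The contrast was fitted in R 4.3.3 by limma 3.58.1 (lmFit, eBayes) on all genes without a filter or block, with Benjamini-Hochberg adjustment over all 14884 genes and a threshold of 0.05. The smallest two-sided p of an exact permutation test over 3 and 3 arrays is 0.1. The fit was tested on simulated data with 200 of 14884 genes changed, fewer than were called in the real data. It recovered 58.6% of log2 changes of 0.5, 91.7% of those of 1 and 100% of those of 2. A gene that was not called may therefore still differ by a small amount. Coordinates and promoters are from RefSeq (GRCh38.p14).

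The members and lists were chosen with earlier results of these data known. By the rule for naming genes, the text names every called member, up to 2 members with the highest mean in a role list without a call, and the 3 genes with the smallest p past the threshold in each list of other genes. Members and genes named beyond that were chosen after their values were seen. The alternatives left out each array in turn, blocked on the replicate number, or used a filter on dim genes, the mean of probe sets, adjustment over all probe sets, other scalings and other variance models.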

Additional observations from a re-analysis of the deposited data

How the results depend on the processing

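With each array left out in turn, genes called over the whole table numbered 1011 to 1170 higher and 1301 to 1502 lower, ligases 4 to 5 higher and 4 to 8 lower, and deubiquitinases 1 to 5 higher and 4 to 7 lower. Adjusted over all probe sets, which tests more features, 767 genes were higher and 970 lower, with 3 ligases higher and 4 lower and 1 deubiquitinase higher and 4 lower. The 14 called members that lost their call this way were TRIM9, TRIM45, TRIM59, TRIM62, TRIM65, USP2, USP6NL, USP7, USP15, USP16, USP28, USP43, USP45 and USP27X-DT, with limma adjusted p from 0.0525 to 0.162. With a trended robust variance 8 ligases were higher. The deviations of same-numbered arrays correlated at 0.117, 0.087 and 0.023, and those of differently numbered arrays at -0.123 to 0.057. These values do not settle whether the numbers pair the arrays. With the replicate block 3 deubiquitinases were higher, and of the 25 coding members called without it 19 were called with it. The cause of these shifts was not tested.

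Of the 123 members, 30 changed sign under at least 1 alternative, with 0 of them called and differences of at most 0.19 in size. For those described by role above, with each array left out in turn, USP5 ranged from -0.00 to 0.10, USP4 from -0.06 to 0.01, USP8 from -0.05 to 0.06, TRIM14 from -0.03 to 0.04 and TRIM3 from -0.05 to 0.17. With quantile scaling USP8 was -0.00, TRIM14 0.05 and TRIM46 0.01, with median centring TRIM14 was 0.01, and with the mean of its probe sets TAB3, which is no member, was -0.02. RMA values have no detection calls, and 18 members lay below the 20th percentile level of 4.43, where a difference may be hard to detect.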
